A study of Glycine max with 8 samples.

Results

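The loci described here are those of soybean (Glycine max) whose transcripts were far lower in 1 salt-treated library of plants over-expressing GmSIN1 than in its mock-treated partner. Counts were summed over the gene models of a locus and scaled to the library total (CPM, the share of all counts of a library times 1000000). A locus on 1 of the 20 numbered chromosomes was a member if it reached at least 10 CPM in each of the other 7 libraries and if its CPM in over-expression (OE) NaCl library 1 was at least 3-fold lower than in OE mock library 1. Of 46955 loci listed on the numbered chromosomes, 13450 met the floor of 10 CPM and are called eligible, and 209 of these (1.55%) were members. The members were thus chosen by their measured levels in OE NaCl 1 and OE mock 1, and the difference between these 2 libraries is described without a test.

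The study measured polyadenylated RNA in 2-week old seedlings of 2 genotypes. The first groups carried the GmSIN1 over-expression (OE) and received 150 mM NaCl (OE NaCl) or a mock treatment (OE mock) for 6 h. The others were the line WEI6823, wild type for GmSIN1 (WT), with NaCl (WT NaCl) or mock treatment (WT mock). Each group held 2 libraries, numbered 1 and 2, and every library was made from equal parts of root and leaf RNA, so fewer cells of a type and less RNA per cell cannot be told apart. The sources used here do not give the promoter of the transgene, the number of transgenic lines or the number of plants in a library.

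GmSIN1 encodes a NAC protein, one of a plant-specific family of transcription factors that bind DNA through a conserved domain at the amino end and take part in development and in responses to drought and salt. Salt in the root medium withdraws water from the plant and loads its cells with sodium. Plants answer with abscisic acid signalling, export or vacuolar storage of sodium, and changes in the transcription of many genes. The files give loci by ID only, and 0 of these IDs were found in the reference gene table, so no member is given a gene name or a role, and the levels of root and leaf marker genes and of GmSIN1 itself were not analysed here. Only 4 IDs are printed, 2 for the lowest ratios of OE NaCl 1 to OE mock 1 and 2 for the highest levels in OE mock relative to WT mock, and all 4 were chosen after their values were seen.

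The libraries held 5980170 to 7199775 expected counts. WT libraries of one group lay close together, with a biological coefficient of variation (the spread beyond counting noise) of 3.48% between the WT NaCl libraries and 3.94% between the WT mock libraries. OE libraries lay further apart: this spread was 49.0% between the OE NaCl libraries and 39.8% between the OE mock libraries. Same-numbered OE libraries were closer across treatments, at 27.4% for OE NaCl 1 with OE mock 1 and 8.11% for OE NaCl 2 with OE mock 2. Even in the closest pair, the chi-square of the counts was 1.34 per degree of freedom, above sampling noise, so all 8 were kept apart.

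The 209 members together were a far smaller part of OE NaCl library 1 than of any other library. Their summed level was 6737 CPM in OE NaCl 1 and 43544 CPM in OE NaCl 2. It was 35930 and 44410 CPM in OE mock 1 and 2. In WT libraries the sum was lower than in these 3 OE libraries and nearly constant, at 18623 and 18562 CPM in WT NaCl 1 and 2 and at 18781 and 18611 CPM in WT mock 1 and 2. The median member had 15.2 CPM in OE NaCl 1 and 76.8 CPM in OE NaCl 2, 83.5 and 72.6 CPM in OE mock 1 and 2, 30.9 and 29.6 CPM in WT NaCl 1 and 2, and 31.1 and 29.9 CPM in WT mock 1 and 2. OE NaCl 1 thus lay below the WT libraries at the median, and the other 3 OE libraries lay above them.

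**Figure D1:**
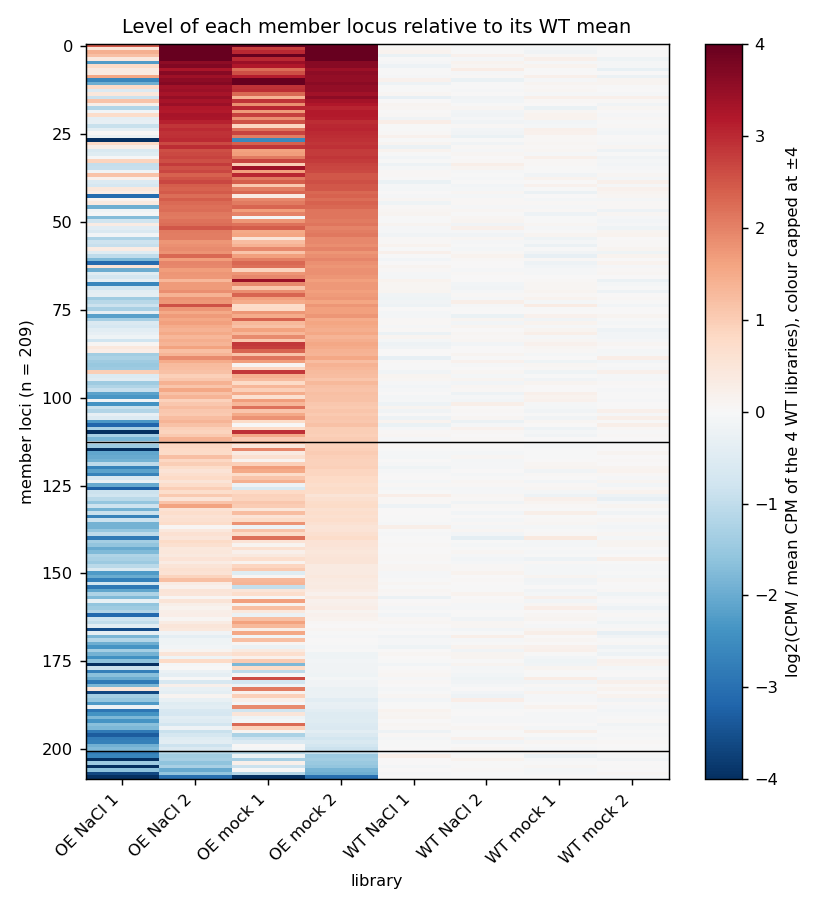
Level of each of the 209 members (rows) in each of the 8 libraries (columns) as log2 of its CPM over the mean CPM of the 4 WT libraries, with colour capped at 4 in either direction. Rows are ordered by the ratio of OE mock 2 to WT mock, and the lines part the 113 members that were 2-fold or more higher in OE mock 2, the 88 within 2-fold and the 8 that were 2-fold or more lower. OE NaCl 1 is mostly pale or blue where the other OE libraries are mostly red.

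The fold by which OE NaCl 1 was lower than OE mock 1 had a median of 4.31 over the members and reached 364. It was at least 4-fold at 125 members, at least 5-fold at 84, at least 10-fold at 31 and at least 20-fold at 12. At 73 members OE NaCl 1 lay under 10 CPM, the floor that every other library had to reach, and at 170 members it was the lowest of the 8 libraries. The 2 members nearest the threshold, both on chromosome 6, had ratios of OE NaCl 1 to OE mock 1 of 0.332 and 0.333. The 2 loci just outside it, on chromosomes 2 and 8, had ratios of 0.334 and 0.334, so the members are one end of a continuous range. A further 363 eligible loci were 2-fold or more lower without meeting the rule.

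The lowest ratio was that of Glyma.10G251500 on chromosome 10, with a longest coding length of 1056 bases. It had 4.46 CPM in OE NaCl 1 and 403 CPM in OE NaCl 2, and 1624 and 424 CPM in OE mock 1 and 2. The WT libraries had 223 and 223 CPM with NaCl and 204 and 211 CPM with mock treatment. OE mock 1 was its highest library and OE NaCl 1 by far its lowest, while the other OE libraries lay about 2-fold above WT. The level in OE mock 1 was 364-fold that in OE NaCl 1, with an exact 95% counting interval of 254 to 538 that covers counting error only.

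Glyma.06G123700 on chromosome 6, with a coding length of 714 bases, came next. Its level was 2.24 CPM in OE NaCl 1 and 163 CPM in OE NaCl 2, and 214 and 158 CPM in OE mock 1 and 2. The WT libraries had only 15.6 and 11.4 CPM with NaCl and 13.1 and 14.6 CPM with mock treatment. Here 3 OE libraries are alike and stand above all WT libraries, and OE NaCl 1 alone lies below WT. The ratio of OE mock 1 to OE NaCl 1 was 95.8 (exact 95% counting interval 57.8 to 171).

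The third, a locus on chromosome 20, stood at 13.9 CPM in OE NaCl 1 against 1076 CPM in OE mock 1 and had the same coding length of 1056 bases as Glyma.10G251500. The fourth and the fifth, on chromosomes 19 and 16, both had a coding length of 414 bases. They had 5.32 and 18.3 CPM in OE NaCl 1, against 366 and 928 CPM in OE mock 1. Both also stood above WT in the OE libraries numbered 2, with 263 and 1028 CPM in OE NaCl 2 and WT NaCl levels of at most 20.4 and 94.4 CPM. Equal lengths do not show that such loci are copies of one gene, and no sequence was compared.

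The next lowest ratio, at a locus on chromosome 9, belonged to a transcript that was low in the OE libraries numbered 1 and abundant in those numbered 2. It had 1.34 CPM in OE NaCl 1 and 61.1 CPM in OE mock 1, but 2898 CPM in OE NaCl 2 and 2802 CPM in OE mock 2. The WT libraries lay between these extremes, at 363 and 366 CPM with NaCl and at 380 and 361 CPM with mock treatment. OE mock 1 was therefore already lower than every WT library at this locus.

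The most highly expressed members kept sizeable counts in OE NaCl 1. A locus on chromosome 7 with a coding length of 360 bases had the highest mean over the other 7 libraries and 203 CPM in OE NaCl 1, against 2160 CPM in OE mock 1 (a 10.6-fold difference). Its WT libraries held 1269 and 1227 CPM with NaCl and 1345 and 1325 CPM with mock treatment. A locus on chromosome 14 had 274 CPM in OE NaCl 1 and 1400 CPM in OE mock 1, with all WT libraries between 1007 and 1035 CPM. In both loci OE NaCl 1 was several-fold below WT, while the other OE libraries were above WT by less than 2-fold.

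The OE libraries numbered 2, which entered the rule only through the floor of 10 CPM, differed far less at the members. The ratio of OE NaCl 2 to OE mock 2 had a median of 0.988 over the members and 1.02 over the other eligible loci. It was below 1 at 111 members and above 1 at 98, and 0 members differed by 2-fold or more in either direction. The lowest ratio was 0.703 and the highest 1.87. The 5 members with a ratio of at least 1.5 were all higher in OE NaCl 2, among them a locus on chromosome 4 with 124 CPM in OE NaCl 2 and 69.4 CPM in OE mock 2, whose OE NaCl 1 level was 8.11 CPM. With 1 library a side, neither pair has a replicate check.

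**Figure D2:**
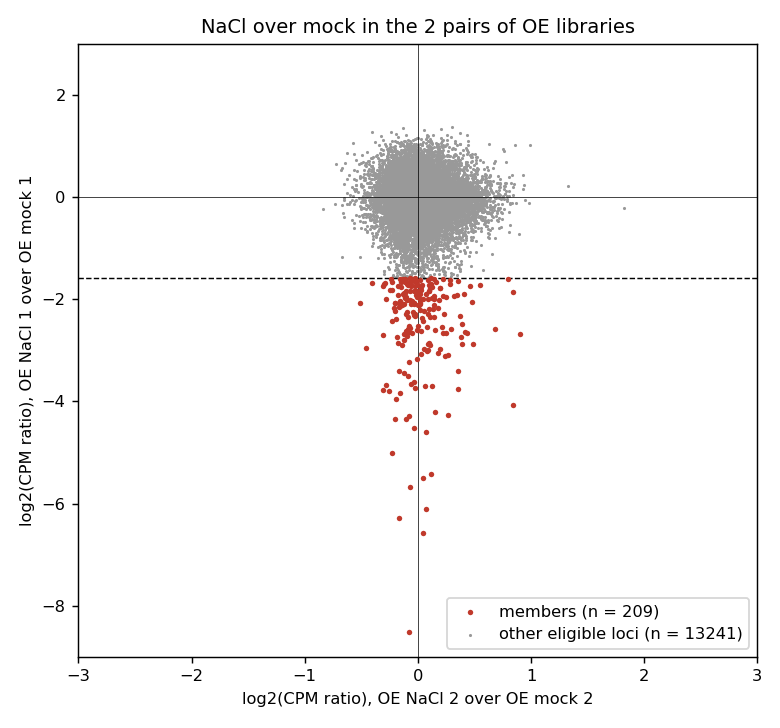
Log2 CPM ratio of NaCl to mock in the OE pair numbered 1 (vertical axis) against the pair numbered 2 (horizontal axis) for the 13450 eligible loci, with the 209 members in red and the rule's 3-fold threshold as a dashed line. The members extend down to -8.51 on the vertical axis and stay between -0.51 and 0.90 on the horizontal axis.

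Over all 8 libraries, edgeR's quasi-likelihood test for salt in OE called 0 of 209 members, and 0% of the 34023 loci tested were called (adjusted p of 0.05). At an unadjusted p of 0.05 it marked 19 of 209 members and 507 of 34023 loci, while DESeq2 and limma-voom each called 0 members and 0 loci. The rule used this contrast, so nothing is read from these counts. The fitted log2 fold changes of the members had a median of -0.69, beside -0.0041 over all loci tested, and each averages over both pairs of OE libraries. Without OE NaCl library 2 the members' median was -2.52, beside -0.06 over all loci tested. That fit keeps only the OE NaCl library used by the rule, so this direction was fixed by the choice. It takes the spread of the single OE NaCl library from the other groups.

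In WT seedlings the members had nearly the same levels with NaCl and with mock treatment. The ratio of mean WT NaCl to mean WT mock lay between 0.744 and 1.30 over the members, with a median of 0.995 beside 1.002 over the other eligible loci. It was below 1 at 114 members and above 1 at 95. When the 4 WT libraries were fitted alone, edgeR's quasi-likelihood test called 0 of 209 members, against 0.0484% of the 30986 loci tested (adjusted p of 0.05), 0.0387% as higher and 0.00968% as lower. At an unadjusted p of 0.05 it marked 17 of 209 members and 2037 of 30986 loci. DESeq2 called 0 members and 0.00323% of all loci. With limma-voom 1 member (0.478%) was called, lower in NaCl, and 0.0710% of all loci. Without WT NaCl library 1 the members' fitted log2 fold changes had a median of 0.00079, beside -0.0039 over all loci tested. The coefficient of variation of a member's CPM over the 4 WT libraries had a median of 6.72% and a maximum of 23.3%.

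When the rule was applied to the other same-numbered NaCl and mock pairs, and to its own pair reversed, it found few loci or none. With OE mock 1 as the reduced library and OE NaCl 1 as its partner, 0 of 13253 loci qualified. With OE NaCl 2 reduced against OE mock 2, 1 of 13336 qualified, and with OE mock 2 reduced against OE NaCl 2, 1 of 13533. In WT, all 4 such comparisons of libraries of equal number found 0 loci. Differences of 2-fold or more were uneven between the directions too, each counted among its own eligible loci. At 572 loci OE NaCl 1 was lower than OE mock 1, and at 105 OE mock 1 was the lower. The rule was not applied between libraries of one group, where large differences were common in OE. Among the other eligible loci, 936 were 2-fold or more lower in OE NaCl 1 than in OE NaCl 2, and 1374 were higher. For OE mock 1 against OE mock 2 these counts were 406 and 695.

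Most members had higher levels in OE than in WT, apart from OE NaCl 1. These shares are described by their counts, without a test. The rule used the OE libraries numbered 2 only for the floor, but it favours loci with high levels in OE mock 1. High levels of members in OE mock 2, a library of the same group, may therefore follow in part from the rule. In OE mock 2, 113 of 209 members (54.1%) were 2-fold or more above the WT mock mean. At 8 (3.83%) it was 2-fold or more below that mean. Among the other eligible loci these shares were 7.66% and 13.8%. The median member was 2.11-fold higher in OE mock 2 than in WT mock, and the median other eligible locus had a ratio of 0.871. In OE NaCl 2 against WT NaCl, 116 members were 2-fold or more higher and 8 lower, with a median ratio of 2.28. In OE mock 1, which the rule used, 124 members were 2-fold or more above WT mock and 8 below.

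The share of eligible loci that were members increased with the level in OE mock 2 relative to WT mock. The rule favours loci with high levels in OE mock 1, which may account for part of this increase. Of 275 loci at under 0.25 of the WT mock mean, 1 was a member (0.364%), and of 6351 loci at 0.5 to 1 of it, 33 were (0.520%). Of 855 loci at 2 to 4 times the WT mean, 59 were members (6.90%), and of 272 loci at 4 times or more, 54 were (19.9%). Over these 272 loci the median log2 ratio of OE NaCl 1 to OE mock 1 was -0.60, while that of OE NaCl 2 to OE mock 2 was -0.06. These loci were picked by OE mock 2, and in OE mock 1 only 203 of the 272 were 2-fold or more higher than in WT mock. In OE NaCl 1, 152 of the 272 lay within 2-fold of the WT NaCl mean and 41 (15.1%) below all 4 WT libraries.

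**Figure D3:**
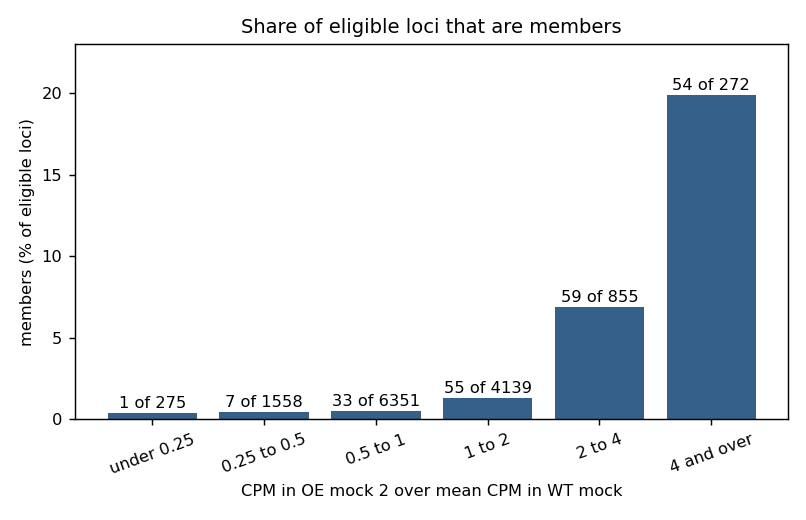
Percentage of eligible loci that are members (bars, with counts above them) by the ratio of CPM in OE mock 2 to the mean CPM in WT mock. The share is 0.364% in the lowest class and 19.9% in the highest.

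Glyma.11G171400 on chromosome 11, with a coding length of 1740 bases, had the highest ratio of OE mock to WT mock among members. OE NaCl libraries 1 and 2 held 74.3 and 959 CPM of it, and OE mock libraries 1 and 2 held 584 and 923 CPM. The WT libraries had 13.5 and 13.1 CPM with NaCl and 13.5 and 14.1 CPM with mock treatment. All OE libraries were above all WT libraries, with OE NaCl 1 nearest to WT. OE mock 1 was 42.4 times and OE mock 2 67.0 times the WT mock mean, and OE NaCl 1 was 5.58 times the WT NaCl mean. The locus was picked for its difference between the genotypes, which is therefore described without a test.

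Glyma.18G061100 on chromosome 18 also had a coding length of 1740 bases. It had 56.9 CPM in OE NaCl 1 and 1285 CPM in OE NaCl 2, and 264 and 1267 CPM in OE mock 1 and 2. Its WT libraries held 41.6 and 39.0 CPM with NaCl and 37.8 and 40.3 CPM with mock treatment. The OE libraries numbered 2 lay close together and were far above those numbered 1, and OE NaCl 1 was just above WT. OE mock 1 was 6.75 times and OE mock 2 32.4 times the WT mock mean, and OE NaCl 1 was 1.41 times the WT NaCl mean. It was picked in the same way and is likewise not tested. On the authors' FPKM scale, which allows for length, the OE mock means were 425 for Glyma.11G171400 and 432 for Glyma.18G061100, and the WT mock means 7.79 and 22.1.

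**Figure D4:**
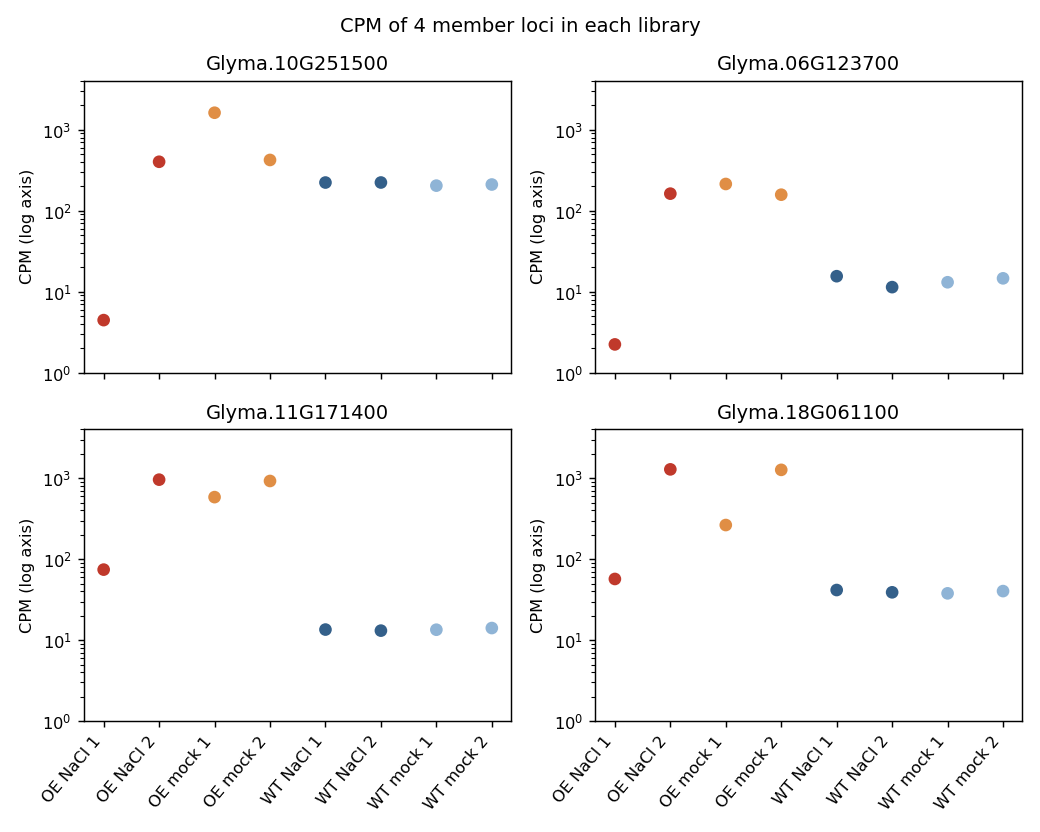
CPM (log axis) of 4 members in each library, with the OE NaCl, OE mock, WT NaCl and WT mock libraries from left to right. OE NaCl 1 is the lowest of all 8 libraries for Glyma.10G251500 (4.46 CPM) and Glyma.06G123700 (2.24 CPM), and the lowest OE library for Glyma.11G171400 (74.3 CPM) and Glyma.18G061100 (56.9 CPM).

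OE NaCl 1 lay below WT at most members. At 173 members (82.8%) it lay below all 4 WT libraries, at 6 within their range and at 30 above all of them, while 47.3% of the other eligible loci were below all WT libraries in OE NaCl 1. The median log2 ratio to the WT NaCl mean was -1.19 in OE NaCl 1 and 1.19 in OE NaCl 2. Of the 113 members that were 2-fold or more higher in OE mock 2 than in WT mock, OE NaCl 1 was below all WT libraries at 78, within their range at 6 and above them at 29, with a median log2 ratio to the WT NaCl mean of -0.54. Of the 88 members within 2-fold of WT in OE mock 2, it was below all WT libraries at 87 and above them at 1, with a median log2 ratio of -1.81. OE NaCl 1 is a library of the rule, so these values are a description.

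**Figure D5:**
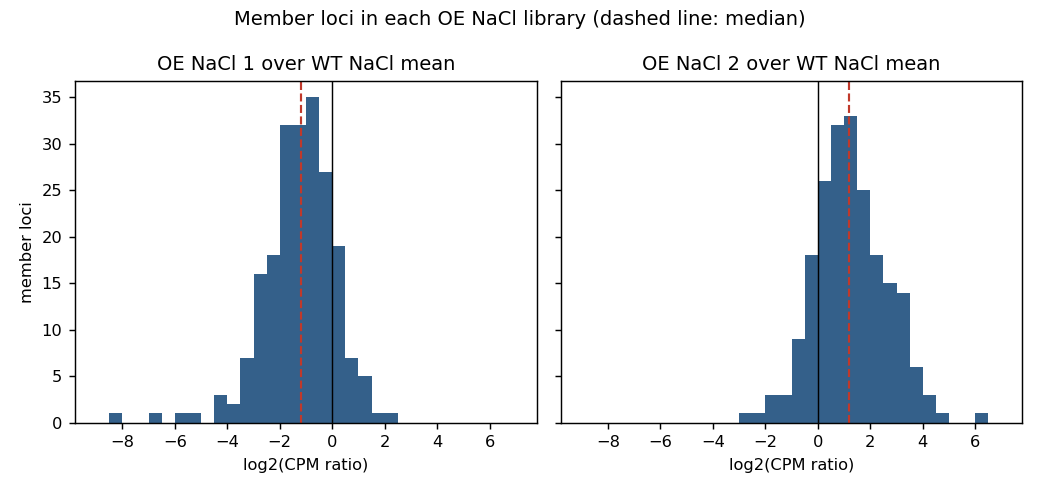
Number of members by log2 CPM ratio to the WT NaCl mean in OE NaCl 1 (left) and OE NaCl 2 (right), with the median as a dashed line. The medians are -1.19 in OE NaCl 1 and 1.19 in OE NaCl 2.

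The 8 members that were 2-fold or more lower in OE mock 2 than in WT mock were all below every WT library in OE NaCl 1. The most abundant of them in WT, on chromosome 20 with a coding length of 2013 bases, had 17.3 CPM in OE NaCl 1 and 206 CPM in OE NaCl 2, and 72.8 and 204 CPM in OE mock 1 and 2. Its 4 WT libraries lay between 1623 and 1642 CPM. All OE libraries were thus far below WT at this locus, and those numbered 1 the lowest. A pair of loci on chromosomes 3 and 8 were different: they had 36.4 and 66.0 CPM in OE NaCl 1, close to the 32.9 and 51.1 CPM in OE NaCl 2. Their OE mock 1 levels of 115 and 210 CPM were near those of WT, whereas their OE mock 2 levels were 35.5 and 56.6 CPM.

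In mock-treated seedlings edgeR's quasi-likelihood test called 12 of 209 members between OE and WT (5.74%), all higher in OE, where 8.92% of the 34023 loci tested were called, 4.2% as higher and 4.72% as lower (adjusted p of 0.05). The members' log2 fold changes had a median of 1.34, beside 0.03 over all loci tested. With NaCl, 3 members (1.44%) were called, all higher in OE, against 7.89% of loci, 3.62% as higher and 4.27% as lower, with a median of 0.52 beside 0.02. Both comparisons include an OE library that the rule used, so nothing is read from the counts. The tests across groups share 1 spread per locus, to which the gap between libraries 1 and 2 of a group contributes if both are fitted. A group left with a single library adds nothing to it. Without both OE libraries numbered 1, the spread therefore comes from the WT libraries only. The biological coefficient of variation was 3.48% and 3.94% in the WT pairs, but 49.0% between the OE NaCl and 39.8% between the OE mock libraries. Nothing is read from the counts of that fit. Leaving out OE NaCl library 1 brought the count with NaCl to 127 members, of which 122 were higher in OE (20.6% of all loci were called). Leaving out OE NaCl library 2 brought it to 101, of which 98 were lower in OE (9.84% of all loci). The members were selected for low levels in OE NaCl 1, so the direction in a fit that keeps only this OE NaCl library was fixed by the choice. Without both OE libraries numbered 1, a choice made after the data were seen, 186 members were called with NaCl, 165 of them higher in OE, where 55.9% of all loci were called. In mock 180 were called, 163 of them higher in OE, where 56.6% of all loci were called.

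The OE mock libraries often differed at the members, although the rule did not compare them. They were within 2-fold of each other at 158 members, while OE mock 1 was 2-fold or more above OE mock 2 at 25 (12.0%) and 2-fold or more below it at 26 (12.4%). Among the other eligible loci these shares were 5.25% and 3.07%. The median ratio of OE mock 1 to OE mock 2 was 0.993 over the members and 1.10 over the other eligible loci.

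At the median, members had shorter coding sequences than other eligible loci and higher levels over the other 7 libraries, without a test. Their median coding length was 1221 bases, against 1392 bases for the others. Of the 2716 eligible loci of up to 783 bases, 63 were members (2.32%), and of the 2686 loci of 2265 bases or more, 25 were (0.931%). Per length, the members' mean over the other 7 libraries had a median of 47.5 FPKM, against 25.4 FPKM for the other eligible loci. In CPM the medians were 51.6 and 33.6. The 7 libraries include OE mock 1, where the rule favours high levels, so these higher levels may follow in part from the rule. In the WT libraries alone the order was the other way round, with a median of 29.9 CPM for the members and 33.6 CPM for the others.

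Members with several gene models are described here by model. The rule requires the sum over a locus to be at least 3-fold lower in OE NaCl 1, so lower levels of its main models were largely fixed by the choice. Of the 209 members, 127 had a single model in the files and 82 had more. At 47 members, 2 or more models reached 10 CPM in OE mock 1, and these 121 models were all lower in OE NaCl 1. They were at least 3-fold lower in 110 cases, and at 39 of the 47 loci this held for every such model. Reads that fit several models of a locus are divided among them by estimate, so models of one locus are not independent. At Glyma.18G061100, for example, the 3 models shared the counts of OE mock 1 equally. Whole counts throughout, to within 0.01, were seen at 20 members (9.57%) and at 7.2% of all eligible loci. At the other members, the 4 named ones included, the counts were not whole throughout. Reads divided with gene models of other loci give such counts, and rounding over several models of one locus can too. Where reads are divided with a near-identical copy, the level is uncertain.

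The members lay on all 20 chromosomes. Their share of the eligible loci ran from 0.838% on chromosome 12, with 5 members, to 2.61% on chromosome 7, with 18. Taking the order of loci from their IDs, 33 members (15.8%) lay within 10 ID steps of another member, against 7.79% of the other eligible loci, and 8 members (3.83%) had the next ID to another member, against 0.929%. The 33 formed 14 runs, 10 of them with 2 members, 3 with 3 and 1 with 4. The run of 4 on chromosome 18 spanned 18 ID steps, and its log2 ratios of OE NaCl 1 to OE mock 1 lay between -3.70 and -1.75. The 6 other eligible loci between its ends had a median of 0.08 and a range of -1.37 to 0.50, so loci in between were not all lower in OE NaCl 1.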

How the data were processed

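The authors deposited expected counts per gene model, and RSEM is named in the submitters' processing notes. The sources used here name no version, aligner, genome build or annotation. Per the file headers, the deposited files also hold FPKM values and a length per model, which is a multiple of 3 throughout and hence a coding length. FPKM was used only to describe levels. Models absent from a file were set to 0.

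Counts were summed per locus (the ID without its final number), and CPM used file totals. Members and lists were chosen with earlier results of these data known. Rounded counts were tested with edgeR 4.0.16 in R 4.3.3 (filterByExpr, TMM, glmQLFit, glmQLFTest, Benjamini-Hochberg adjustment over all loci). Salt in WT was fitted on the 4 WT libraries and all else on all 8. Fits were tested on simulated counts. For the fits on all 8 libraries the simulation gave WT and OE an equal spread, unlike these data. It therefore does not check those fits where the spreads are unequal. Alternatives included DESeq2 1.42.0 and limma-voom (limma 3.58.1).

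The naming rule and the gene lists needed RefSeq names, and the reference table (Glycine_max_v4.0) holds neither the files' IDs nor descriptions, so both were void. The lists, root and leaf markers among them, have no result, and loci were singled out after their values were seen. The labels call libraries of a group biological replicates without naming separate plants, so p-values measure the spread between these libraries, which may be technical.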

Additional observations from a re-analysis of the deposited data

How the results depend on the processing

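The number of members was 209 with the rule as given, 572 at a 2-fold and 125 at a 4-fold minimum, and 125 with a floor of 20 CPM. It was 218 with TMM scaling, 309 with a floor of 5 CPM and 257 with single models. With TMM library sizes, added after the data were seen, the members' median log2 ratio of OE mock 2 to WT mock was 1.27 in place of 1.08, and OE NaCl 1 lay below all WT libraries at 175 members in place of 173. For salt in WT, 0 members were called (0.0484% of all loci), and 1 with limma-voom (0.478% of members, against 0.0710% of all loci). With each library left out, the members' median log2 fold change ran from -0.0012 to 0.0028. For salt in OE, 0 were called, and 0 to 115 with each library left out. For OE against WT in mock, 12 were called (5.74% of members, against 8.92% of all loci), and 22 without a filter (10.5% against 6.24%). Limma-voom called 8 (3.83% against 6.67%), and fewer than 12 were called with each library left out. DESeq2 called 68 (32.5% against 15.1%), and a fit of only the 4 mock libraries called 108 (51.7% against 10.4%). The members' median log2 fold change ran from 1.22 to 1.35 with each library left out. For OE against WT with NaCl, 3 were called (1.44% against 7.89%), 6 without a filter (2.87% against 5.68%), 40 with DESeq2 (19.1% against 13.6%), 1 with limma-voom (0.478% against 6.16%), 0 with only the 4 NaCl libraries (0.538% of all loci) and 0 to 127 with each library left out. With a replicate block, 29 members were called in mock (13.9%, against 13.7% of all loci) and 9 with NaCl (4.31% against 12.1%), and 0 for salt in either genotype. Same-numbered libraries share only a number in the labels, and their deviations had correlations of 0.74 across treatments in OE and 0.03 in WT. Fits without both OE libraries numbered 1, added after the data were seen, called 180 members in mock (86.1%, against 56.6% of all loci) and 186 with NaCl (89.0%, against 55.9%). There the spread of the single OE libraries is taken from WT. The cause of these changes was not tested.

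Some fitted log2 fold changes changed sign. None of those given here passed in the fit of the report, and edgeR adjusted p-values stand beside the alternatives that passed. For salt in WT, Glyma.06G123700 (-0.03) ranged from -0.28 to 0.17 and Glyma.18G061100 (0.04) from -0.0045 to 0.0976, turning when a library was left out. For salt in OE, Glyma.11G171400 (-0.57) ranged from -3.51 to 0.34 and Glyma.18G061100 (-0.25) from -3.96 to 1.46. For OE against WT with NaCl, Glyma.06G123700 (2.71) was -2.64 without OE NaCl library 2 (adjusted p = 0.00984) and 3.69 without OE NaCl library 1 (adjusted p = 0.00289), called in opposite directions. In the same comparison Glyma.10G251500 (-0.04) was 0.0058 with RLE scaling, 0.0063 with DESeq2 and 0.97 without both OE libraries numbered 1. It ranged from -5.70 to 0.95 with each library left out. The rule used the OE libraries numbered 1, so these are descriptions.

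Beside counting error, levels near 1 to 2 CPM rest on about 9 to 15 expected counts.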
